A study of Mus musculus with 11 samples.

Results

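The protein disulfide isomerase family and its endoplasmic reticulum (ER) relatives were followed as 10 named genes, P4hb, Pdia3, Pdia4, Pdia5, Pdia6, Erp29, Erp44, Txndc5, Txndc11 and Txndc12, among the 24421 genes of the count table. They were taken by name as a gene family, with earlier results of these data known. All 10 passed the filter on low counts, which kept the 10951 genes above 1 CPM (a read count scaled to the size of its library) in at least 4 pools. Bulk RNA-seq covered 11 pools of conventional type 1 dendritic cells (cDC1s) sorted from B16 melanoma, a transplanted mouse tumor line. The study calls these tumors subcutaneous, and its methods describe intradermal injection in the flank. The mice were young adult C57BL/6 mice of both sexes, and each pool combined tumors of 2 to 4 mice. All mice carried the floxed Xbp1 allele (XBP1 fl/fl). The 4 control pools had no Cre, and control replicate 4 also carried IRE1 fl/fl. The 4 XBP1ΔDC pools were XBP1 fl/fl with CD11c-CRE, and the 3 XBP1ΔDCIRE1truncDC pools were XBP1 fl/fl, IRE1 fl/fl with CD11c-CRE. The Cre is driven by Itgax, which encodes CD11c, so recombination is not limited to cDC1s. Recombined Xbp1 makes no XBP1s protein, and recombined Ern1 makes an IRE1 that has lost its RNase domain but is still produced.

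Members of this family hold thioredoxin-like domains in the ER lumen, where they form, break and rearrange disulfide bonds in proteins that enter the secretory pathway. Some work on nearly any unfolded client, others serve glycoproteins, retain unassembled subunits or prepare misfolded proteins for export to the cytosol. IRE1 is a sensor of ER stress whose RNase splices Xbp1 mRNA into the form that encodes the transcription factor XBP1s, a known activator of ER folding genes. The same RNase can cleave other mRNAs at the ER, a process called regulated IRE1-dependent decay (RIDD). XBP1s binds promoters at elements with an ACGTG core, and ATF6 and XBP1s also act at ER stress response elements (ERSE), in which a CCAAT box is followed by CCACG.

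The 250 bases before each RefSeq start on GRCm38.p6 were searched on both strands for the letters of these elements, and 9 members had 1 or more windows. The ERSE letters, a CCAAT box followed after any 9 bases by CCACG, stood in 1 member, Pdia6, and in 0.153% of the 8472 tested genes with a window. The letters TGACGTGG, the core of the unfolded protein response element (UPRE), stood in Txndc5 and Txndc11 and in 0.897% of tested genes. The 5 letters ACGTG, which lie inside TGACGTGG, stood in 7 of the 9 members and in 25.8% of tested genes. CCACG, which overlaps ACGTG where the letters read CCACGT, stood in 6 of the 9 members and in 47.6% of tested genes. The ERSE-II element, an inverted CCAAT box followed after 1 base by CCACG, stood in 0 members and in 0.0708% of tested genes. These are letter matches, and binding was not measured here. The stretches below are read 5′ to 3′ on the gene's strand, with CCACG, the ACGTG core, the CCAAT box and their reverse complements in capitals. Bases inside annotated untranslated regions were left out, except in the Txndc11 stretch. P4hb (chr11:120573254-120573503, minus strand) is shown because it fell in both deleted genotypes, Pdia6 (chr12:17266339-17266544, plus strand) because it holds the ERSE letters, and Pdia4 (chr6:47813513-47813762, minus strand) because it holds CCAAT boxes without ACGTG or CCACG. Erp44 (chr4:48279590-48279801, minus strand) is shown because its pools did not overlap between any of the genotypes. Txndc5 (chr13:38528034-38528063, minus strand) and Txndc11 (chr16:11134616-11134645, minus strand) are shown as the 30 bases around TGACGTGG.
P4hb: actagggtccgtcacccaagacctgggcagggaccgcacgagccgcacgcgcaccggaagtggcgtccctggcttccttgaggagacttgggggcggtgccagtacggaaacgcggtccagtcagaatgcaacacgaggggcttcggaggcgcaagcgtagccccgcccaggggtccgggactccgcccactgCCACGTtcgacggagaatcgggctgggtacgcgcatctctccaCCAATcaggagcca
Pdia6: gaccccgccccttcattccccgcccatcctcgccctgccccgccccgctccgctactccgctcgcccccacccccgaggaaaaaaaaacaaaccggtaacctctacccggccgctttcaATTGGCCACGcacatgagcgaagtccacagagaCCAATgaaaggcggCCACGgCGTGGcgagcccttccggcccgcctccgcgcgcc
Pdia4: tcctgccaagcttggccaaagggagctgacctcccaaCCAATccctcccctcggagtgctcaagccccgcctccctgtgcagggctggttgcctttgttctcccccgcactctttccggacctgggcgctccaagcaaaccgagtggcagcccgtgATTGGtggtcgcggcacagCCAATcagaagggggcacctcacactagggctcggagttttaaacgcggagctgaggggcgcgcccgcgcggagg
Erp44: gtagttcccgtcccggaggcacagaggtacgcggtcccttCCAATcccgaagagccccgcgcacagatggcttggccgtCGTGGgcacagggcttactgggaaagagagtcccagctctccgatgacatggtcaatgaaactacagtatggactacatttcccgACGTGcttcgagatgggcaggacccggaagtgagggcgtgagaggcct
Txndc5: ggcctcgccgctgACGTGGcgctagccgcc
Txndc11: tgaagtgtggctgACGTGGagagtccgggt
The Txndc5 stretch belongs to the most downstream of 3 RefSeq starts of that gene, and the Txndc11 stretch lies before 1 of its 2 RefSeq starts and inside a first exon of other annotated transcripts. Counts per gene cannot tell which start was used.

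**Figure D1:**
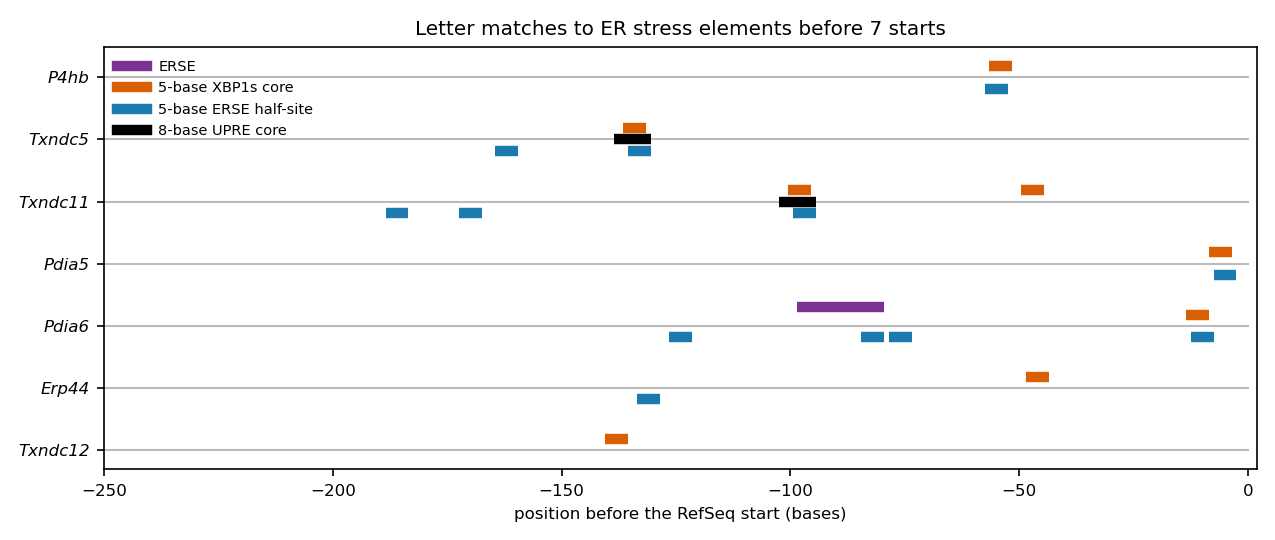
Positions, in bases before the RefSeq start, of letter matches in the windows of 7 members, with Txndc5 shown for its most downstream start, Erp44 for 1 of its 2 starts and Txndc11 for its start at the 5′ end of the gene. Each bar is a match on either strand, and the ERSE match stands in Pdia6 alone while UPRE core matches stand in Txndc5 and Txndc11.

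Library totals were 22173308 to 26843486 counts in control, 21889074 to 25334289 in XBP1ΔDC and 21089065 to 26019797 in XBP1ΔDCIRE1truncDC pools. The 11 cDC1 markers were all detected, and their summed level was 9112 to 10217 normalized CPM in control, 8478 to 9653 in XBP1ΔDC and 8957 to 9689.6 in XBP1ΔDCIRE1truncDC pools. Xbp1 itself fell in XBP1ΔDC pools, from 255 ± 11.5 to 152 ± 15.8 normalized CPM (SD, n = 4 each; adjusted p = 0.00167, edgeR's quasi-likelihood test with Benjamini-Hochberg adjustment), and was 209 ± 28.7 (n = 3) in XBP1ΔDCIRE1truncDC pools (adjusted p = 0.324). Ern1 averaged 14.0, 12.4 and 21.5 normalized CPM in the 3 genotypes and passed in no comparison. Gene counts sum all exons, so these values do not separate floxed from intact transcripts. Plasma cells express this family strongly, and the B and plasma cell markers summed to at most 2.76 normalized CPM in any pool, with Jchain and Pou2af1 at 0. Summed melanoma markers ran from 8.96 to 60.9, 12.2 to 64.7 and 8.74 to 11.02 normalized CPM in control, XBP1ΔDC and XBP1ΔDCIRE1truncDC pools, macrophage markers from 29.6 to 63.0, 33.9 to 123 and 40.0 to 67.9, and fibroblast markers from 0.593 to 12.2, 6.49 to 35.2 and 2.33 to 3.52, and no gene of these lists passed in any comparison. Of the 4 plasmacytoid dendritic cell markers, 3 were tested, 0 passed and Klk1 was at 0, and their sum of 38.8 to 47.7 normalized CPM in control was above that of every XBP1ΔDC pool (31.1 to 35.3) and every XBP1ΔDCIRE1truncDC pool (22.5 to 38.6), as were the 6 members that did not overlap with control. Siglech, a defining marker of that cell type, was at most 5.53 in any pool, Ccr9 at most 17.5 and Tcf4 at most 26.1. Their log2 fold changes in XBP1ΔDC against control were -1.12, -0.59 and -0.20 in that order. In XBP1ΔDCIRE1truncDC against control they were -1.85, -1.17 and -0.07. Summed T cell markers were at most 10.52, and summed cDC2 markers ran from 24.8 to 68.0, 28.7 to 63.6 and 38.0 to 54.5. The part of these cell types in the values below was not tested, except that melanoma transcripts were entered as a covariate in 1 alternative fit. In bulk RNA, a smaller number of cells of a type and less RNA per cell cannot be told apart.

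Per length, the family in control pools was led by Pdia3, the ERp57 that works with calnexin, calreticulin and tapasin, at 447 ± 14.2 normalized CPM per kb of exon (SD, n = 4), followed by P4hb, the archetypal protein disulfide isomerase, at 316 ± 10.1 and Pdia6, known as P5, at 157 ± 9.47. Pdia4, known as ERp72, stood at 91.2 ± 12.3, Txndc5 at 55.8 ± 3.61, Erp44 at 55.5 ± 1.23, Pdia5 at 40.1 ± 5.27, Erp29 at 23.0 ± 0.970, Txndc12 at 6.43 ± 0.485 and Txndc11 at 6.38 ± 0.553. Among neighbours in this order, the pools of Txndc5 and Erp44 overlapped, as did those of Txndc12 and Txndc11, and with the longest coding transcript as the length the last pair changed places (10.7 and 13.3 per kb) while the other 8 kept their order. The place of Erp29 depends on its annotated length, 9060 exon bases or 5204 in the longest coding transcript, against 3418 and 2624 for Erp44. Before division by length, Erp29 averaged 208 normalized CPM in control and Erp44 190. Which transcripts were expressed was not measured. The 3 highest genes made up 75.9% to 77.8% of the family's summed level per kb in control, 78.2% to 79.9% in XBP1ΔDC and 78.8% to 80.9% in XBP1ΔDCIRE1truncDC pools. P4hb supplied 26.4% of that sum in control pools (range 25.0% to 27.9%), 18.4% in XBP1ΔDC (18.02% to 19.2%) and 17.2% in XBP1ΔDCIRE1truncDC (16.6% to 18.1%). Pdia3 supplied 37.3%, 46.7% and 47.3% in the same order. The P4hb level per kb was 0.709 ± 0.0443 of the Pdia3 level in control (n = 4), 0.394 ± 0.0105 in XBP1ΔDC (n = 4) and 0.364 ± 0.0223 in XBP1ΔDCIRE1truncDC pools (n = 3), with no overlap between control and either deleted genotype. The summed level per kb was 1198 ± 31.4, 1001 ± 58.6 and 1154 ± 179, and the last group ran from 966 to 1322, across the ranges of the other two.

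**Figure D2:**
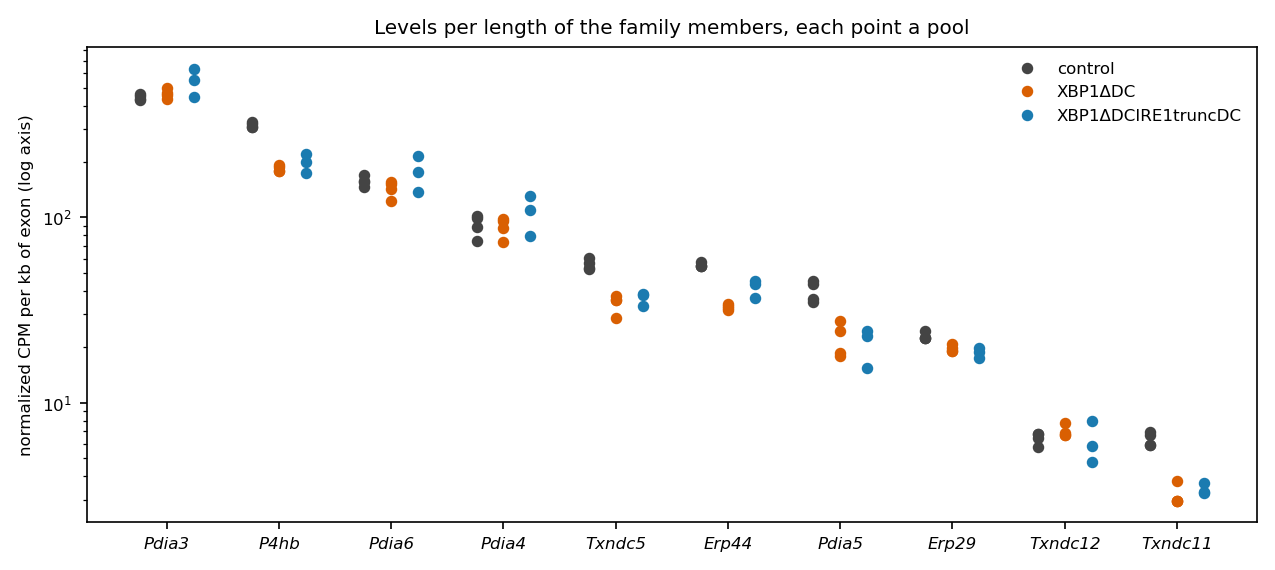
Normalized CPM per kb of exon (log axis) of the 10 members, ordered by the control mean, each point a pool and each color a genotype. Pdia3 stayed the highest and P4hb dropped toward Pdia6 in both deleted genotypes, where its means were 184 and 198 per kb.

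XBP1ΔDC against control asks which members differ when Xbp1 is deleted and the RNase domain of IRE1 is kept. The study describes raised IRE1 RNase activity in XBP1ΔDC cDC1s, so loss of XBP1s and a change in RNase activity cannot be told apart in this comparison. In this comparison 5 of the 10 members fell and 0 rose (edgeR, adjusted p below 0.05), against 0.858% of all tested genes that fell and 0.0365% that rose, and each of the 5 also fell by more than 1.5-fold, as 0.466% of tested genes did. They were P4hb, Txndc5, Txndc11, Pdia5 and Erp44. In 6 members, these 5 and Erp29, every XBP1ΔDC pool was below every control pool, which held for 3.67% of tested genes. The median log2 fold change was -0.46 over the 10 members and 0.005 over all tested genes. P4hb and Txndc5 are on the literature list of XBP1s targets that the study used, and Erp44 is on its list of RIDD targets. The lists come from earlier literature, and the study applied them to the same pools. Its result for these lists is therefore not independent of the values given here.

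P4hb, which is also the beta subunit of prolyl 4-hydroxylase, measured 942, 886, 915 and 879 normalized CPM in control replicates 1 to 4 and 509, 535, 547 and 511 in XBP1ΔDC replicates 1 to 4. It measured 570.4, 626 and 499 in the 3 XBP1ΔDCIRE1truncDC pools. All 7 deleted pools lay well below the lowest control pool, control replicate 4, and the deleted genotypes overlapped with each other. P4hb fell by 42.0% in XBP1ΔDC (log2 fold change -0.78 ± 0.072 SE, adjusted p = 1.82e-04, edgeR) and fell by 37.6% in XBP1ΔDCIRE1truncDC (-0.68 ± 0.078, adjusted p = 0.00307).

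Txndc5, an isomerase also called ERp46 or endoPDI, measured 236, 272, 240.0 and 254 normalized CPM in control pools, 129, 169, 162 and 160.2 in XBP1ΔDC and 174, 150.1 and 171 in XBP1ΔDCIRE1truncDC pools. The highest deleted pool was under the lowest control pool, and XBP1ΔDC replicate 1 was the lowest of all 11. Txndc5 fell by 0.69 ± 0.092 (SE) on the log2 scale in XBP1ΔDC (adjusted p = 0.00194, edgeR) and fell by 0.60 ± 0.10 in XBP1ΔDCIRE1truncDC (adjusted p = 0.0212). The second call was lost without control replicate 2 or 4 or any 1 XBP1ΔDCIRE1truncDC pool, with adjusted p of 0.0636 to 0.0844 (edgeR). It was also lost with melanoma transcripts as a covariate (adjusted p = 0.0680, edgeR), a fit in which Pdia5 passed in XBP1ΔDCIRE1truncDC (adjusted p = 0.0108). The annotated exons of Txndc5 share 6.92% of their bases with Gm31834 and 4.99% with Bmp6 on the opposite strand, and the library kit does not mark strand.

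Txndc11, a membrane-bound thioredoxin-domain protein that works with EDEM proteins and dual oxidases, had the largest fold change of the family in XBP1ΔDC. Its control pools measured 61.6, 59.5, 52.1 and 52.3 normalized CPM, the XBP1ΔDC pools 26.1, 33.4, 26.1 and 26.2, and the XBP1ΔDCIRE1truncDC pools 28.7, 29.0 and 32.4. Both deleted genotypes lay below control without overlap, and XBP1ΔDC replicate 2 stood apart from 3 pools that were nearly equal. It fell by 50.4% in XBP1ΔDC (log2 fold change -1.01 ± 0.11 SE, adjusted p = 4.95e-04, edgeR) and fell by 46.7% in XBP1ΔDCIRE1truncDC (-0.91 ± 0.12, adjusted p = 0.00551).

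Pdia5, an isomerase known to act on the stress sensor ATF6, measured 121, 126, 96.3 and 101 normalized CPM in control, 67.4, 76.7, 51.3 and 49.7 in XBP1ΔDC and 63.6, 42.8 and 67.1 in XBP1ΔDCIRE1truncDC pools. No deleted pool reached the lowest control pool, but the spread within groups was wide, with a coefficient of variation of 13.1%, 21.3% and 22.8%. It fell by 0.86 ± 0.17 (SE) on the log2 scale in XBP1ΔDC (adjusted p = 0.0333, edgeR), and this call was lost without control replicate 1, 2 or 4 or XBP1ΔDC replicate 1, 3 or 4 (adjusted p of 0.0616 to 0.115). In XBP1ΔDCIRE1truncDC the log2 fold change was -0.94 ± 0.19 (95% interval -1.34 to -0.54) with an adjusted p of 0.0551 (edgeR), and 7 of 22 alternative settings put it under 0.05.

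Erp44, which retrieves unassembled and ER-resident proteins from the Golgi and retains the oxidase ERO1, measured 187, 188, 188 and 196 normalized CPM in control, 117, 113, 108 and 110.3 in XBP1ΔDC and 149, 155 and 126 in XBP1ΔDCIRE1truncDC pools. The 3 groups did not overlap, and XBP1ΔDCIRE1truncDC lay between the other two. Erp44 fell by 40.9% in XBP1ΔDC (log2 fold change -0.76 ± 0.074 SE, adjusted p = 2.86e-04, edgeR). In XBP1ΔDCIRE1truncDC against control its log2 fold change was -0.40 ± 0.080 (95% interval -0.58 to -0.23, adjusted p = 0.0546, edgeR), and 3 of 22 alternative settings put it under 0.05 (limma-voom, DESeq2 and edgeR's newer quasi-likelihood method, adjusted p of 0.0438, 0.00107 and 0.0481), with adjusted p of up to 0.163 in the others.

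**Figure D3:**
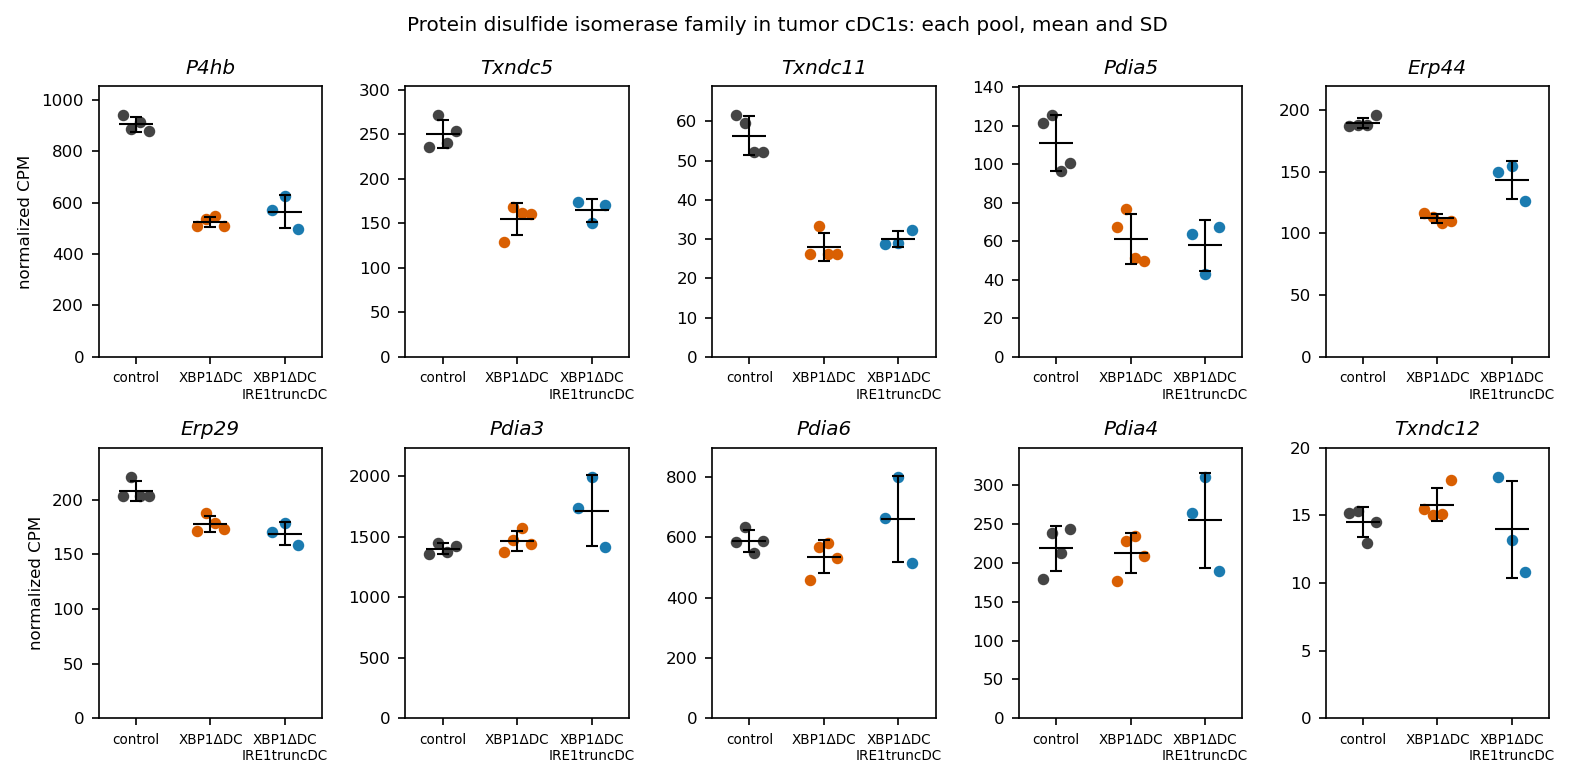
Normalized CPM of each member in every pool (points, colored by genotype), with the mean (wide bar) and SD (whiskers) of each genotype and axes from 0. In P4hb, Txndc5, Txndc11, Pdia5, Erp44 and Erp29 every deleted pool lies below every control pool, and in Pdia3, Pdia6, Pdia4 and Txndc12 the genotypes overlap.

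The members that passed in no comparison include the most abundant gene of the family. Pdia3 measured 1358, 1452, 1371 and 1427 normalized CPM in control, 1376, 1475, 1575 and 1439 in XBP1ΔDC and 1739, 1997 and 1411 in XBP1ΔDCIRE1truncDC pools. XBP1ΔDCIRE1truncDC replicates 1 and 2 were above all other pools and replicate 3 was within the control range. In XBP1ΔDC its log2 fold change was 0.06 with a 95% interval of -0.13 to 0.26 (adjusted p = 0.958, edgeR), an interval that does not reach the fall of P4hb. In XBP1ΔDCIRE1truncDC it was 0.29 (0.08 to 0.50, adjusted p = 0.277, edgeR).

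Pdia6 and Pdia4, general ER isomerases that associate with the chaperone BiP, gave the same order of pools within XBP1ΔDCIRE1truncDC as Pdia3. Pdia6 measured 585, 633, 546 and 589 normalized CPM in control, 459, 569, 579.9 and 531 in XBP1ΔDC and 662, 801 and 515 in XBP1ΔDCIRE1truncDC pools. Pdia4 ran from 179.9 to 244, from 177 to 235 and from 190.1 to 311 in the 3 genotypes. XBP1ΔDCIRE1truncDC replicate 2 was the highest of its group for 6 members (P4hb, Pdia3, Pdia4, Pdia6, Erp29 and Erp44) and replicate 3 the lowest for these 6 and Txndc12. In XBP1ΔDC the log2 fold change of Pdia6 was -0.14 (95% interval -0.39 to 0.12) and that of Pdia4 was -0.04 (-0.36 to 0.28), and in XBP1ΔDCIRE1truncDC they were 0.17 (-0.11 to 0.44) and 0.22 (-0.12 to 0.56). The lower bounds for Pdia4 and Pdia6 in XBP1ΔDC lie above the fitted change of P4hb.

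Erp29, a redox-inactive relative that aids secretion and membrane protein folding, measured 204, 221, 204 and 204 normalized CPM in control, 171, 188, 179 and 173 in XBP1ΔDC and 170.3, 179 and 158 in XBP1ΔDCIRE1truncDC pools. Every deleted pool was below every control pool, by a small margin. The log2 fold change was -0.23 (95% interval -0.37 to -0.08, adjusted p = 0.247, edgeR) in XBP1ΔDC and -0.30 (-0.46 to -0.14, adjusted p = 0.125) in XBP1ΔDCIRE1truncDC. Its annotated exons share 24.4% of their bases with Naa25 on the opposite strand, and reads from the 2 genes cannot be told apart there. Txndc12, a small ER thioredoxin also called ERp18 or AGR1, ran from 12.9 to 15.3 normalized CPM in control, 15.0 to 17.6 in XBP1ΔDC and 10.8 to 17.9 in XBP1ΔDCIRE1truncDC pools. Its groups overlapped, and its log2 fold changes against control were 0.13 (-0.21 to 0.46) and -0.05 (-0.42 to 0.31).

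XBP1ΔDCIRE1truncDC against control asks which members differ when the RNase domain of IRE1 is lost as well. In it 3 of the 10 members fell, P4hb, Txndc5 and Txndc11, and 0 rose, against 0.292% of tested genes that fell and 0.0639% that rose. The 6 members whose pools did not overlap with control were those named for XBP1ΔDC, against 5.81% of tested genes that were lower without overlap. The median log2 fold change of the 10 members was -0.35, and that of all tested genes was -0.003. Both comparisons use the same 4 control pools.

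**Figure D4:**
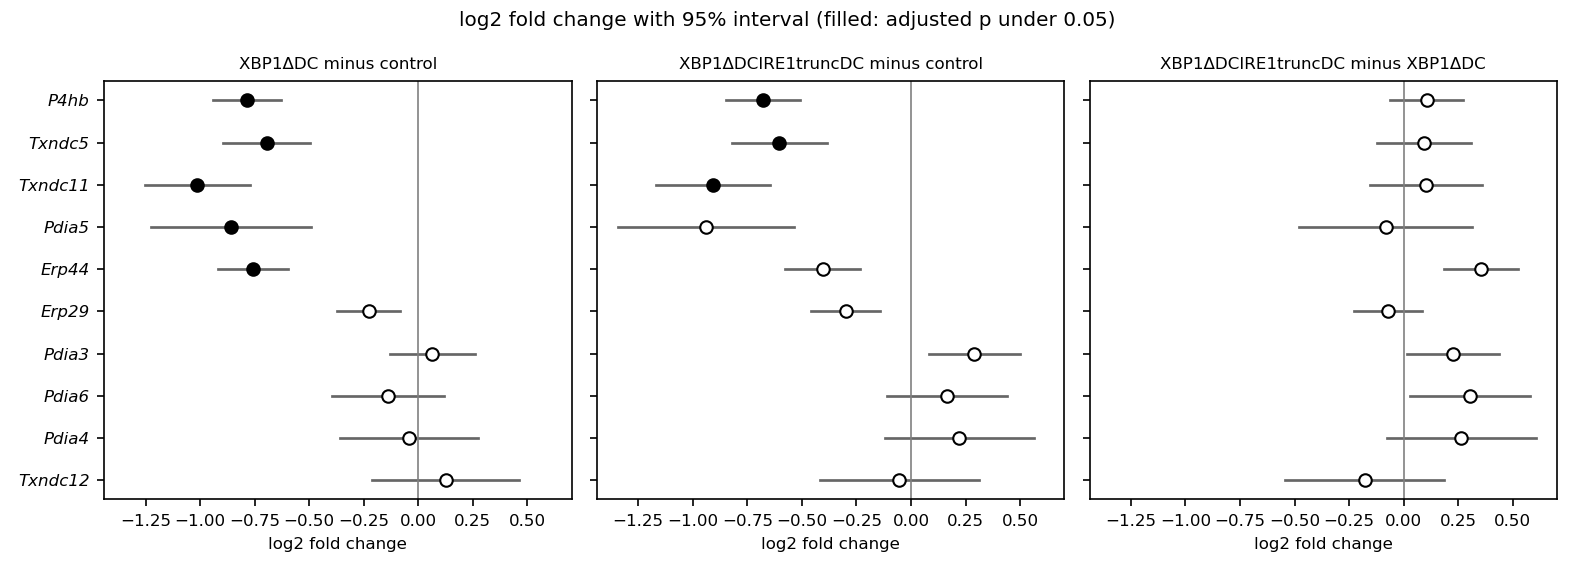
Log2 fold change (points) with its 95% interval (lines) of the 10 members in the 3 comparisons, filled where the adjusted p was below 0.05 in edgeR. P4hb, Txndc5 and Txndc11 are filled on the left and in the middle, Pdia5 and Erp44 on the left alone, and no point is filled on the right, where Erp44 has the interval farthest from 0.

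XBP1ΔDCIRE1truncDC against XBP1ΔDC compares both deleted genotypes, which differ in the floxed Ern1 allele. Here 0 of the 10 members passed with edgeR, against 0.0731% of tested genes that rose and 0% that fell, and 1 member passed with DESeq2. Under the alternatives other than leaving out 1 pool, 3 to 59 genes of the whole table passed, against 8 in the main fit. With an unadjusted p below 0.05 there were 3, Erp44, Pdia3 and Pdia6, all higher, against 2.79% of tested genes. Erp44 was 1.28-fold higher, with a log2 fold change of 0.35 ± 0.079 (SE, 95% interval 0.18 to 0.53, unadjusted p = 6.28e-04, adjusted p = 0.202, edgeR), and DESeq2 gave an adjusted p of 0.0111. It was the 1 member whose pools did not overlap between these genotypes, against 3.11% of tested genes. The log2 fold changes of P4hb, Txndc5 and Txndc11 were 0.11 (95% interval -0.06 to 0.27), 0.09 (-0.12 to 0.31) and 0.10 (-0.15 to 0.36), so upper bounds for all 3 lie below the size of their falls against control. Pdia5 was at -0.08 (-0.48 to 0.31).

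RIDD cleavage has been linked to CUGCAG in a stem loop, and the DNA letters CTGCAG were counted in the annotated coding sequence of each member. Txndc5 held 4, Txndc11 held 3, P4hb held 2, and Pdia3 and Pdia6 held 1 each. Erp44, Pdia4, Pdia5, Erp29 and Txndc12 held 0, and 71.0% of tested genes held at least 1. Loops were not modelled and untranslated regions were not searched.

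Related genes give the setting of these values. Of 12 other ER thioredoxin-fold genes, such as the membrane-bound Tmx1 to Tmx4 and Dnajc10, 7 were tested and 0 passed in either comparison with control, with a median log2 fold change of -0.14 in both. Pdia2, Pdilt, Erp27, Agr2 and Agr3 were at most 0.233 normalized CPM in any pool. Of 11 ER thiol oxidases and redox enzymes, 9 were tested and 1 fell in XBP1ΔDC, against 0.858% of all tested genes. This was Qsox1, an oxidase that makes disulfides directly, at 26.4 ± 2.59 normalized CPM in control and 17.5 ± 1.54 in XBP1ΔDC (SD, n = 4 each), a log2 fold change of -0.59 (adjusted p = 0.0255, edgeR). Ero1l and Ero1lb, which reoxidize the isomerases, had log2 fold changes of -0.19 and -0.27 and did not pass. The 21 genes of the thioredoxin system outside the ER were all tested and 0 passed in any comparison with edgeR, with 1 (lower) and 5 (2 lower, 3 higher) at an unadjusted p below 0.05 in XBP1ΔDC and XBP1ΔDCIRE1truncDC against control, where 834 and 1224 of the 10951 tested genes were.

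Of 14 binding partners of the isomerases, 11 were tested. In XBP1ΔDC 3 fell and 1 rose, against 0.858% of all tested genes that fell and 0.0365% that rose. In XBP1ΔDCIRE1truncDC 0 fell and 1 rose, against 0.292% and 0.0639%. Hspa5, which encodes BiP, measured 1631 to 1718 normalized CPM in control, 2134 to 2272 in XBP1ΔDC and 2406 to 3351 in XBP1ΔDCIRE1truncDC pools. It rose by 0.40 ± 0.084 (SE) on the log2 scale in XBP1ΔDC (adjusted p = 0.0444, edgeR) and by 0.76 ± 0.090 in XBP1ΔDCIRE1truncDC (adjusted p = 0.00314), the opposite sign to P4hb in both. Tapbp, the tapasin that is disulfide-linked to ERp57 in the peptide loading complex, fell from 1237 ± 105 to 854 ± 146 normalized CPM in XBP1ΔDC (SD, n = 4 each; log2 fold change -0.53, adjusted p = 0.0427, edgeR). It was 1379 ± 99.9 (n = 3) in XBP1ΔDCIRE1truncDC pools, a log2 fold change of 0.16 (95% interval -0.10 to 0.41), while Pdia3 passed in neither. Edem1 and Edem2, which select misfolded glycoproteins for degradation, fell by 0.35 and 0.42 on the log2 scale in XBP1ΔDC (adjusted p = 0.0407 and 0.0172, edgeR). In XBP1ΔDCIRE1truncDC Edem1 was at -0.13 and Edem2 at -0.41 (adjusted p = 0.608 and 0.0556). Calr and Canx, the lectin chaperones that recruit ERp57, passed in no comparison. None of the partners that passed in XBP1ΔDC changed by more than 1.5-fold, and the partners were not followed under the alternative settings.

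**Figure D5:**
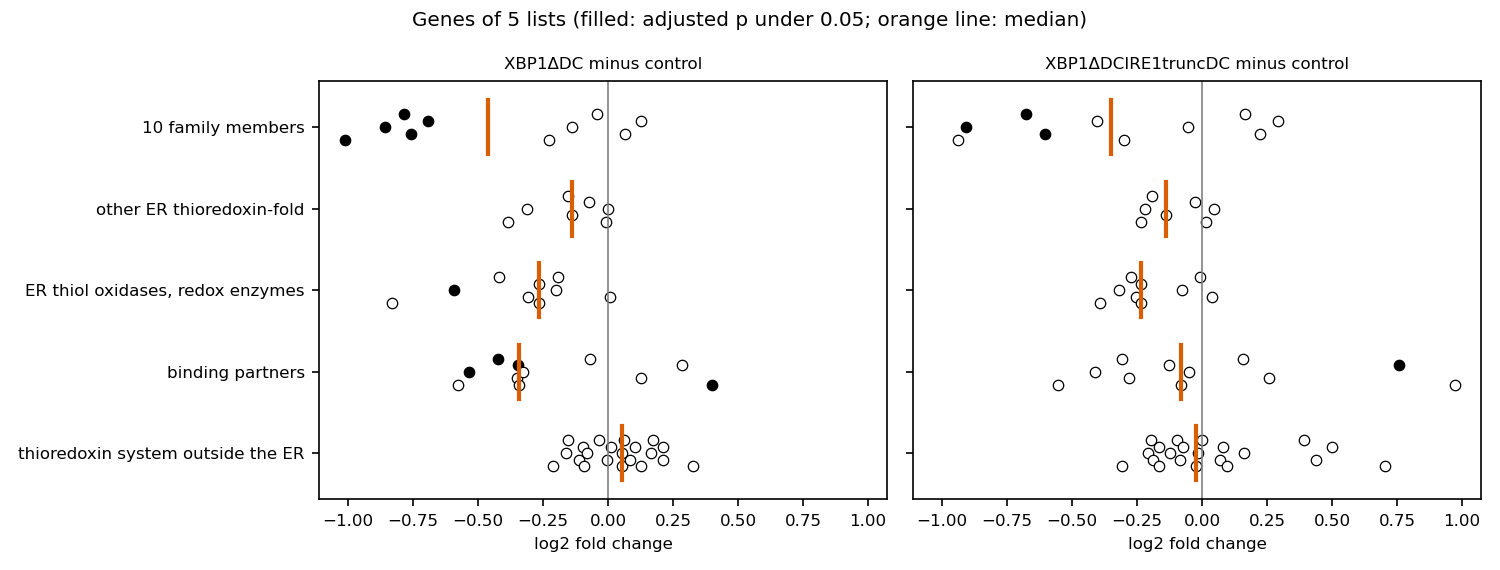
Log2 fold change of each tested gene in 5 lists (points, filled where the adjusted p was below 0.05 in edgeR), with the list's median (orange line), for both deleted genotypes against the same control pools. The median of the 10 members is -0.46 on the left and -0.35 on the right, and the thioredoxin genes outside the ER have medians of 0.05 and -0.03.

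The genes whose log2 CPM followed a member most closely over the 11 pools were named for 4 members by Pearson's r, as a description of pools that share their genotypes. For P4hb they were Spcs2, Ddost and Spcs3 (r of 0.984, 0.982 and 0.974), and for Txndc11 they were Mgat2, Slc39a7 and Ostc (0.982, 0.980 and 0.973). Spcs2 and Spcs3 encode signal peptidase subunits, and Ddost and Ostc encode subunits of oligosaccharyltransferase. For Erp44 they were Gm2a, Rpn1 and Naaa (0.968, 0.955 and 0.948). For Pdia3 they were Manf, Usp14 and Calr (0.947, 0.942 and 0.937), so its nearest genes were not those of P4hb.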

How the data were processed

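The authors trimmed single-end reads with Trimmomatic 0.39, checked them with FastQC 0.11.8, aligned them with STAR 2.7.3a and counted them with HTSeqCount, on mm10 per the labels, and the deposited counts are raw. The authors also deposited log2 values normalized with limma 3.42.2, used here in 1 alternative. The annotation release is not given in the sources used here. RNA was pre-amplified with a SMART-seq kit. Genes above 1 CPM in at least 4 pools (10951 of 24421) were fitted in 1 edgeR 4.0.16 quasi-likelihood model of the 3 genotypes after TMM scaling (R 4.3.3), tested on simulated data first, with Benjamini-Hochberg adjustment over all genes. The p-values set a difference between genotypes against the spread between pools. Coordinates and lengths came from GENCODE vM21, promoters from RefSeq GRCm38.p6. Replicate numbers mark separate pools, and the sample titles do not say whether same-numbered pools share anything else. Deviations of same-numbered pools correlated at 0.0418 to 0.133 between XBP1ΔDC and control and at -0.0204 to 0.0270 between XBP1ΔDCIRE1truncDC and control. Between the deleted genotypes the correlations were -0.260 to -0.142. The main fit used no block. Replicate pools were compared by chi-square (21.2 to 67.2 for each degree of freedom) and none was a copy. Members and lists were chosen with earlier results of these data known. Named genes were the 10 members, the targeted genes, list genes that passed a test, and the 3 closest genes of 4 members. Genes named in lists without having passed (Tmx1 to Tmx4, Dnajc10, Ero1l, Ero1lb, Calr, Canx and the genes below the filter) were added after their values were seen. Alternatives were limma-voom 3.58.1, DESeq2 1.42.0, other scalings, filters, fits and left-out pools.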

Additional observations from a re-analysis of the deposited data

Results flagged for a closer look

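In 3 of the 20 groups of 4 pools checked, 1 pool stood farther from the other 3 than Dixon's 95% critical value allows, and chance alone flags about 1 group in 20. Erp29 was 221 normalized CPM in control replicate 2 and 203.6 in each of the other control pools. Erp44 was 196 in control replicate 4, the pool that also carries IRE1 fl/fl, and 187 to 188 in the other 3. Txndc11 was 33.4 in XBP1ΔDC replicate 2 and 26.1 to 26.2 in the other 3.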

How the results depend on the processing

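Each comparison was recomputed under 22 alternatives, of which 11 left out 1 pool. In XBP1ΔDC, P4hb, Erp44, Txndc5 and Txndc11 passed in all 22 and Pdia5 in 15. In XBP1ΔDCIRE1truncDC against control, P4hb and Txndc11 passed in all 22 and Txndc5 in 15, and the number of members passing went from 3 to 5 with limma-voom and with edgeR's newer quasi-likelihood method and to 6 with DESeq2, which added Pdia5, Erp44 and Erp29. Against XBP1ΔDC, DESeq2 called 1 member in place of 0. Calls over all genes also moved with the method, and in XBP1ΔDC against control DESeq2 called 172 genes where the main fit called 98. The added members can therefore not be read as particular to the family. The cause of these moves was not tested. Leaving out 1 pool gave 4 to 5, 2 to 3 and 0 members. Over all genes, 98, 39 and 8 passed in the 3 comparisons, 60 to 109, 17 to 33 and 4 to 11 with 1 pool left out, and 59 to 172, 12 to 193 and 3 to 59 under the rest. With the replicate number as a block, 4, 2 and 0 members passed (Pdia5 and Txndc5 were lost, adjusted p = 0.0825 and 0.129, edgeR) and 59, 12 and 3 genes. The correlation of same-numbered deviations averaged 0.0979, 0.00353 and -0.221, which does not show whether same-numbered pools share more than a number. Among values near 0, log2 fold changes with 1 pool left out ran from -0.125 to 0.0359 for Pdia4 in XBP1ΔDC (above 0 without control replicate 2 or 4 or XBP1ΔDC replicate 1), from -0.272 to 0.101 for Txndc12 in XBP1ΔDCIRE1truncDC (above 0 without its replicate 3) and from -0.203 to 0.0912 for Pdia5 against XBP1ΔDC (above 0 without replicate 2 of either genotype), and Txndc11 against XBP1ΔDC was -0.0316 with melanoma transcripts as a covariate. Levels per kb moved with the length used, for Txndc11 in control from 6.38 to 13.3. Small groups of pools and wide spread in XBP1ΔDCIRE1truncDC limit the comparisons of Pdia3, Pdia4, Pdia6 and Txndc12.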
